A study of Mus musculus with 6 samples.

Results

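The genes described here are 41 genes of mitosis, the spindle and the kinetochore, picked by name from 55487 genes in the expression tables of cultured mouse chondrocytes. All 41 were found by symbol, and all 41 had enough reads to be tested. The chondrocytes, the cells that make cartilage matrix, came from knee cartilage of C57B/6 mice and were kept for 24 h with extracellular vesicles, small membrane particles shed by cells, dosed by protein at 10 µg/ml. The vesicle donors were unstimulated macrophages for 3 libraries (M-EV) and macrophages exposed to LPS, an endotoxin of bacteria, for the other 3 (M-LPS-EV). Both groups thus received macrophage vesicles, and cells without vesicles were not analysed here, so every value is a difference between the vesicle types. RNA was read as stranded mRNA libraries, and the labels do not tell whether the 3 libraries of a group are independent cultures. A p-value here therefore reflects the spread among these particular libraries, which may be technical.

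Dividing cells switch on this set of genes late in the cell cycle. Cyclins A and B with the kinase Cdk1 drive entry into mitosis, the kinetochore ties each chromosome to spindle microtubules, a checkpoint holds anaphase back until every chromosome is attached, and the anaphase-promoting complex then has securin and cyclin B destroyed so that the chromosomes part and the cell divides. The genes share a transcription programme in which the MuvB complex with B-MYB and FOXM1 binds an element called CHR (cell cycle genes homology region) and NF-Y binds nearby CCAAT boxes. In growth cartilage, dividing chondrocytes form columns before they enlarge, while in adult cartilage division is rare.

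The promoters of these genes were searched for those letters, as a description of sequence. Genes of this programme are known to share them, and a link to the fold changes was not tested. RefSeq windows of 300 bases (GRCm38.p6), from 250 before to 50 after the annotated start, were at hand for 33 of the 41 genes. No window was held for Ccna2, Cdc25c, Foxm1, Kif20a, Spc24, Aurkb, Incenp or Tpx2. The CHR letters TTTGAA, read on both strands, were in 24 of the 33 genes (72.7%), against 20.2% of all 27025 genes in the promoter table. The variant TTTAAA was in 9 genes (27.3%, against 14.9% of all), and the CCAAT box on either strand in 25 genes (75.8%, against 41.1%). At least 2 CCAAT boxes stood in 18 genes (54.5%, against 13.3%), and a CHR letter run of either kind together with a CCAAT box in 23 genes (69.7%, against 12.2%). The position was also alike: a CHR run lay within 50 bases of the start in 24 of the 33 genes (72.7%), against 9.5% of all. Only in Cdca8 did a CHR run share a base with a CCAAT box. Mad2l1, Nuf2, Nusap1 and Pttg1 had none of the letters in the window, which says only that these letters are not there.

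The 5 windows printed here belong to the members with the highest fold changes among those that hold both elements. Picked in this way, they cannot show a link between the elements and the fold changes. Kif2c, the member with the highest fold change, held CHR letters but no CCAAT box. Nuf2, Nusap1, Mad2l1 and Pttg1, with none of the letters, had log2 fold changes of 0.31, 0.30, 0.22 and 0.13. Whether the letters bear on the fold changes was not tested, and members without a window cannot be placed on either side. Capitals mark the CHR letters and the CCAAT box, read on either strand, the run is 5′ to 3′ on the gene's own strand, and base 251 of each window is the start. The windows are, in GRCm38.p6, chr2:118597961-118598260 on the plus strand for Bub1b, chr9:70421505-70421804 on the minus strand for Ccnb2, chr7:135716330-135716629 on the minus strand for Mki67, chr9:61946750-61947049 on the minus strand for Kif23, and chrX:100625815-100626114 on the plus strand for Kif4.
Bub1b: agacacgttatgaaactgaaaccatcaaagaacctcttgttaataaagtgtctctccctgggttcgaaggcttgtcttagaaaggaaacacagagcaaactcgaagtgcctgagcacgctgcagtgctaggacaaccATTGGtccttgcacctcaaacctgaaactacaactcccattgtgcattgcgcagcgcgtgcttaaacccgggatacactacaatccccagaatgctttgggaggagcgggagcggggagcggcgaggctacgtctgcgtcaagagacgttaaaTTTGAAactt
Ccnb2: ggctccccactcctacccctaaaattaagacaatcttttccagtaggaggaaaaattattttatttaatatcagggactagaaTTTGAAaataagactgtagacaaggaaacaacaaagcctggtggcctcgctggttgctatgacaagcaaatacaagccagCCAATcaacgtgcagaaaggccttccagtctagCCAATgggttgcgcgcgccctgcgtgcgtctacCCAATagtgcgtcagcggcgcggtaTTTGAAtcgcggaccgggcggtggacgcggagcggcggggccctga
Mki67: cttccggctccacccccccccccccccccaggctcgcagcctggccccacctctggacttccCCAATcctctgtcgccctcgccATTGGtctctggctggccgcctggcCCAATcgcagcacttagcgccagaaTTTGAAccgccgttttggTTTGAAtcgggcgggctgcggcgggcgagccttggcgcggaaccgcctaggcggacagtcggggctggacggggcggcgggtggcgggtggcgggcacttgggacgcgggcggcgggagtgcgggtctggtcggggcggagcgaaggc
Kif23: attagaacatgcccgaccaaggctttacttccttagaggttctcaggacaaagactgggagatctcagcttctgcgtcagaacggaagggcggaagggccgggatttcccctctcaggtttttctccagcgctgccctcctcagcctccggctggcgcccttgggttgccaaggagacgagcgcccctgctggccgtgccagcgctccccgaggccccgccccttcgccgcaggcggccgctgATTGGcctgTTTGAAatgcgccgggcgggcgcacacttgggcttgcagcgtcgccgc
Kif4: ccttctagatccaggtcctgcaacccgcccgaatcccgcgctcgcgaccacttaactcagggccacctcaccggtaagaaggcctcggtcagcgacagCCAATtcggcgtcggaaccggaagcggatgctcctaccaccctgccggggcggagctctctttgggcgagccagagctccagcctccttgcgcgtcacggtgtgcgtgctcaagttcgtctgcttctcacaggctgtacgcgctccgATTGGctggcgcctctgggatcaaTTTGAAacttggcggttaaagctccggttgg
In Ccnb2, Kif23, Kif4 and Bub1b a CHR run stands after the start, downstream of the CCAAT boxes. In Mki67 both CHR runs stand upstream of the start, after 3 CCAAT boxes. These matches are descriptions of the letters and do not show that a factor binds there.

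**Figure D1:**
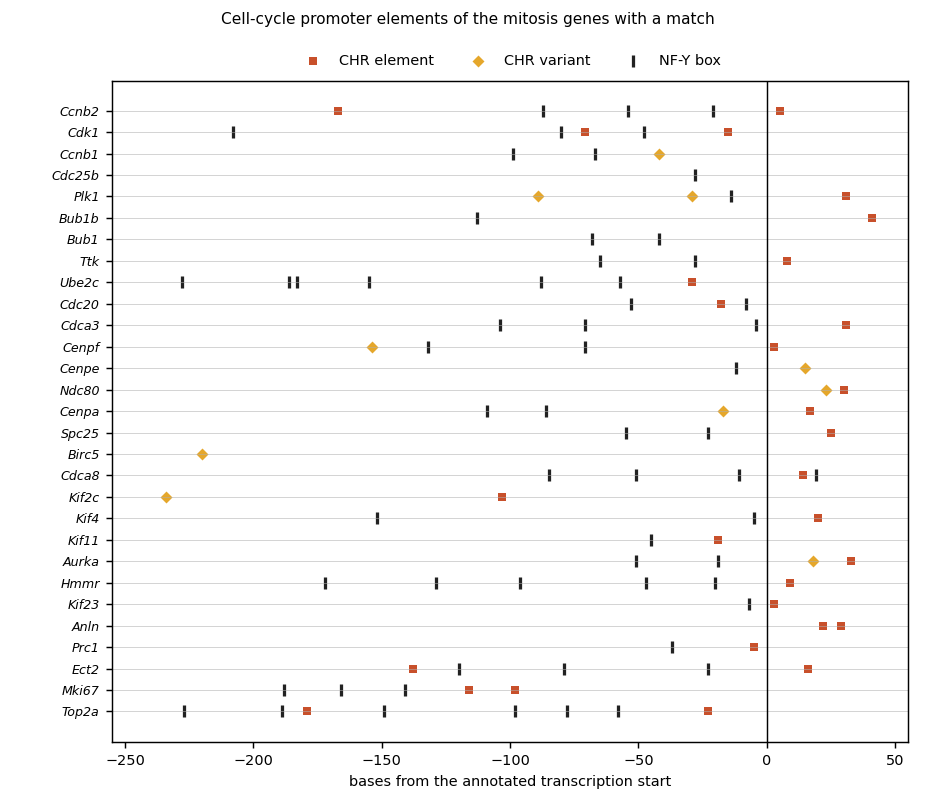
Positions of CHR elements (squares), the CHR variant (diamonds) and NF-Y boxes, which are the CCAAT boxes (bars), in bases from the annotated transcription start, for the mitosis genes with at least 1 match, 1 window per gene. Most CHR elements sit close to the start, with NF-Y boxes mainly upstream of them: 24 of 33 genes have a CHR run within 50 bases of the start.

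With M-LPS-EV nearly all of the 41 mitosis genes stood higher than with M-EV, each by a small amount. Of the 41 genes 39 rose and none fell, with the securin gene Pttg1 and the phosphatase gene Cdc25c not called (edgeR quasi-likelihood test, Benjamini-Hochberg adjusted p under 0.05 over all 14604 tested genes, two-sided). Over all tested genes 16.4% were called higher and 15.2% lower. The list was chosen with earlier results of these data known, so this contrast describes the set and does not test it. Fold changes ran from 1.10 to 1.39 with a median of 1.23, that is a median log2 fold change of 0.30 for the members against 0.003 for all tested genes. In 40 of the 41 genes the 3 M-LPS-EV libraries all lay above the 3 M-EV libraries, a pattern that 21.5% of all tested genes shared (42.2% had groups apart in either direction). Ranked with sign, from the most lowered to the most raised gene, these changes stood between the 74.1 and 92.7 percentiles of all log2 fold changes. Many genes outside the programme thus rose more.

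The rise can be seen in each library without a model. The 41 genes together held 0.287%, 0.289% and 0.288% of all counts in the M-EV libraries and 0.363%, 0.362% and 0.361% in the M-LPS-EV libraries. Their summed TPM (a level per transcript length) was 2299, 2268 and 2284 with M-EV and 2803, 2755 and 2806 with M-LPS-EV. The groups did not overlap on either scale. Total expected counts were 20239626 to 25712667 per library, and the lowest count of any member in a library was 122. Between libraries of a group the SD of a member's CPM (the count scaled to the TMM-adjusted library size) was 2.9% of its mean at the median, with a range of 0.436% to 10.3%. In bulk RNA a larger share of dividing cells and more mitotic RNA per dividing cell cannot be told apart.

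**Figure D2:**
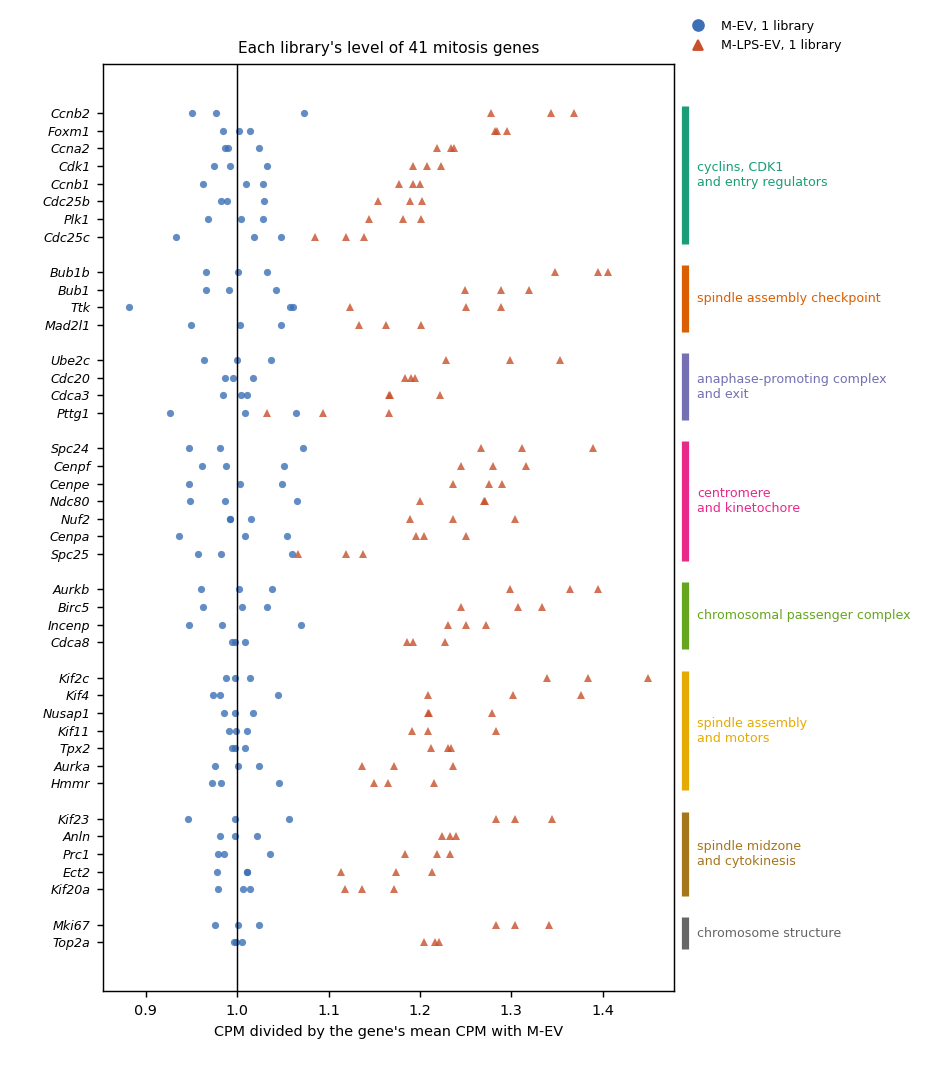
CPM of each library divided by the gene's mean CPM with M-EV, for the 41 genes grouped by role. Circles are the 3 M-EV libraries and triangles the 3 M-LPS-EV libraries. The triangles lie right of the circles in 40 genes, and in Pttg1 they overlap.

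Markers of chondrocytes and of other cell types were also read. The 11 chondrocyte markers, led by Col2a1, summed to 55402 to 55948 TPM with M-EV and 45612 to 46752 TPM with M-LPS-EV, with 10 of 11 called lower. The 10 fibroblast markers summed to 1282 to 1288 and 1445 to 1463 TPM, with 3 higher and 3 lower, and the 12 macrophage markers to 37.9 to 42.3 and 46.6 to 53.4 TPM, with 4 higher among 8 tested. The 6 endothelial markers summed to between 1.24 and 2.36 TPM in all libraries, with none called among 2 tested. The 5 osteoblast markers summed to 60.9 to 66.0 and 51.9 to 59.5 TPM, with 1 higher and 2 lower among 4 tested. All these calls are to be read beside 16.4% called higher and 15.2% called lower of all tested genes. No marker had 0 counts in all libraries. Whether cells other than chondrocytes were present was not tested, nor was the part that any of these cell types had in the rise of the mitosis genes.

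The mitotic cyclins, Cdk1 and the regulators of entry into mitosis rose in 7 of 8 cases. Ccnb2, cyclin B2, stood at 44.3, 39.3 and 40.4 CPM with M-EV and 55.5, 52.8 and 56.6 CPM with M-LPS-EV (log2 fold change of M-LPS-EV over M-EV 0.41, SE 0.05, edgeR adjusted p = 9.8e-08). Foxm1, the forkhead factor that drives transcription of this gene set, stood at 51.6, 52.6 and 53.2 CPM and at 67.9, 67.3 and 67.3 CPM (0.36, SE 0.04, edgeR adjusted p = 1.5e-08). The libraries of each group were close together for Foxm1 and more spread for Ccnb2, and the groups of both genes lay apart. Ccna2, cyclin A2, had 126, 126 and 130.4 CPM with M-EV and 155, 158 and 157 CPM with M-LPS-EV (0.30, SE 0.03). Cdk1, the kinase that both cyclins activate, had 93.5, 97.3 and 91.9 CPM and then 115, 114 and 112 CPM (0.27, SE 0.03). Ccnb1, cyclin B1, rose by 0.25 (SE 0.04), Cdc25b, a phosphatase that activates Cdk1, by 0.24 (SE 0.05), and Plk1, a kinase of mitotic entry and many later steps, by 0.23 (SE 0.04). Ccnb1 has processed copies in the genome: Ccnb1-ps matches its main transcript at 99.2% over 1287 bases and received 64.7 counts in the M-EV group and 61.6 in the M-LPS-EV group, which leaves the division of reads among them uncertain. Ndc80 shares a stretch with 2700099C18Rik (95.05% over 303 bases). That gene received 591.2 counts in the M-EV group and 659.8 in the M-LPS-EV group, beside 1967 and 2293 for Ndc80. What shared reads contribute to the change of Ndc80 was not tested.

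Cdc25c, the other phosphatase of Cdk1 in the list, was not called. Its libraries stood at 14.1, 15.9 and 15.4 CPM with M-EV and 16.4, 16.9 and 17.2 CPM with M-LPS-EV (log2 fold change 0.16, SE 0.07, edgeR adjusted p = 0.081). All M-LPS-EV libraries were above all M-EV libraries, but by little beside their spread, and the 95% interval of the change, 0.02 to 0.30, also holds the median change of the members.

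All 4 genes of the spindle assembly checkpoint rose. The checkpoint makes the signal by which unattached kinetochores delay anaphase. Bub1b (ENSMUSG00000040084), on chromosome 2 from 118598211 to 118641591 in mm10, encodes BubR1, a part of the inhibitor that restrains the anaphase-promoting complex. It had 55.1, 51.6 and 53.4 CPM with M-EV and 71.9, 75.0 and 74.5 CPM with M-LPS-EV (0.47, SE 0.04, edgeR adjusted p = 3.6e-10). Bub1, the checkpoint kinase at the kinetochore, had 33.9, 36.6 and 34.8 CPM and 46.4, 45.3 and 43.9 CPM (0.36, SE 0.04). Mad2l1, which encodes the inhibitor subunit Mad2, had 49.4, 46.7 and 51.6 CPM and 55.8, 59.1 and 57.2 CPM (0.22, SE 0.04). The 95% intervals of Bub1b and Mad2l1, 0.39 to 0.55 and 0.13 to 0.31, do not overlap, but their difference was not tested. Ttk, the Mps1 kinase that starts the signal, was the least abundant member by TPM. It had 13.3, 16.0 and 16.0 CPM and 18.9, 16.9 and 19.4 CPM (0.29, SE 0.08, edgeR adjusted p = 0.0047). Its call ended without M-EV replicate 1, the low one (0.20, edgeR adjusted p = 0.058), and with effective length offsets (0.27, edgeR adjusted p = 0.077).

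Of the 4 genes of the anaphase-promoting complex and exit from mitosis 3 rose. Ube2c, the ubiquitin-conjugating enzyme that works with the complex, had 58.9, 54.7 and 56.8 CPM with M-EV and 76.9, 73.8 and 69.8 CPM with M-LPS-EV (0.37, SE 0.04, edgeR adjusted p = 7.9e-08). Cdc20, the activator that the checkpoint holds back, had 88.4, 85.7 and 86.5 CPM and 104, 103 and 103 CPM (0.25, SE 0.03). Cdca3, a trigger of mitotic entry that is itself degraded at exit, had 73.0, 71.1 and 72.5 CPM and 88.2, 84.2 and 84.2 CPM (0.24, SE 0.04). For these 3 genes the lowest M-LPS-EV library in CPM was above the highest M-EV library. Cdca3 was not called once transcript length was offset (0.22, edgeR adjusted p = 0.066), nor by limma-trend on TPM (adjusted p = 0.12). Pttg1 (ENSMUSG00000020415), on chromosome 11 from 43420250 to 43426251 in mm10, encodes securin, the inhibitor of separase. It had 5.89, 6.21 and 5.41 CPM with M-EV and 6.80, 6.38 and 6.02 CPM with M-LPS-EV (0.13, SE 0.11, edgeR adjusted p = 0.42). Here the groups overlapped, and the 95% interval, -0.10 to 0.37, holds both no change and the median change of the members.

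The genes of the centromere and kinetochore rose in all 7 cases. Cenpf and Cenpe, large proteins of the outer kinetochore, the latter a motor that carries chromosomes to the spindle equator, had the smallest p-values. Cenpf stood at 76.6, 81.5 and 74.5 CPM with M-EV and 99.2, 102 and 96.5 CPM with M-LPS-EV (0.36, SE 0.04, edgeR adjusted p = 2.9e-08). Cenpe stood at 75.8, 79.2 and 71.5 CPM and at 93.4, 96.3 and 97.4 CPM (0.34, SE 0.04). The histone H3 variant gene Cenpa, whose protein marks the centromere, had 55.7, 51.7 and 58.2 CPM and 69.0, 66.5 and 66.0 CPM (0.28, SE 0.04). In CPM the groups of each of these genes were apart. On the TPM scale (limma-trend on log2(TPM + 1)) Cenpe and Cenpf were no longer called (adjusted p = 0.077 and 0.067), and with protein-coding transcripts only Cenpa was at 0.13 (edgeR adjusted p = 0.18).

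The Ndc80 complex, the microtubule-binding rod of the kinetochore, has 4 subunits that work in equal number, and all 4 genes rose by unequal estimates. Nuf2 had 36.3, 35.5 and 35.5 CPM with M-EV and 44.2, 42.6 and 46.6 CPM with M-LPS-EV (0.31, SE 0.04). Spc24 changed by 0.40 (SE 0.06), Ndc80 by 0.32 (SE 0.05) and Spc25 by 0.14 (SE 0.05). Spc25 had the smallest change of all called members. It stood at 39.7, 35.9 and 36.8 CPM and 42.0, 40.0 and 42.7 CPM, and its interval, 0.05 to 0.24, ends below that of Spc24, 0.28 to 0.53. The call of Spc25 (edgeR adjusted p = 0.018) ended when 4 of the 6 libraries were left out in turn (0.11 to 0.14, edgeR adjusted p from 0.064 to 0.11), with DESeq2 (adjusted p = 0.090) and with effective length offsets (edgeR adjusted p = 0.13).

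The chromosomal passenger complex corrects wrong attachments and later prepares the cut between daughter cells. All 4 of its genes rose. Its kinase Aurkb (ENSMUSG00000020897), on chromosome 11 from 69045647 to 69051664 in mm10, had 38.7, 37.3 and 35.8 CPM with M-EV and 52.0, 48.4 and 50.8 CPM with M-LPS-EV (0.43, SE 0.04, edgeR adjusted p = 1.5e-08). Birc5, which encodes survivin, had 47.7, 45.7 and 49.0 CPM and 59.1, 63.3 and 62.1 CPM (0.37, SE 0.04). Incenp, the scaffold, had 59.8, 67.5 and 62.0 CPM and 80.3, 77.7 and 78.9 CPM (0.32, SE 0.04). Cdca8, which encodes borealin, had 48.3, 48.1 and 48.8 CPM and 59.4, 57.7 and 57.4 CPM (0.27, SE 0.04). No M-LPS-EV library of the complex overlapped an M-EV library.

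Spindle assembly factors and motors rose in all 7 cases, among them the gene with the highest fold change of the whole set. Kif2c (ENSMUSG00000028678), on chromosome 4 from 117159639 to 117182639 in mm10, encodes MCAK, a kinesin that takes microtubules apart at the kinetochore. It had 30.5, 31.0 and 30.2 CPM with M-EV and 44.3, 40.9 and 42.3 CPM with M-LPS-EV (0.47, SE 0.04, edgeR adjusted p = 4.8e-09), a fold of 1.39. Tpx2, which activates Aurora A on the spindle, had 137, 135 and 135 CPM and 165, 167 and 168 CPM (0.29, SE 0.03). Kif11, the motor that pushes the spindle poles apart, had 82.0, 83.6 and 82.6 CPM and 98.5, 106 and 100.02 CPM (0.30, SE 0.04). The M-EV libraries of these 3 genes differed by only a few per cent, and the gap between groups was several times the spread within them. Kif4, a chromosome-bound kinesin, had 33.8, 36.2 and 34.0 CPM and 47.7, 45.2 and 41.9 CPM (0.38, SE 0.05). Nusap1, a microtubule-bundling protein, changed by 0.30 (SE 0.04), the kinase Aurka by 0.24 (SE 0.04) and Hmmr, a hyaluronan receptor that also acts at spindle poles, by 0.23 (SE 0.04).

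The 5 genes of the spindle midzone and of cytokinesis all rose. Anln, anillin of the contractile ring, had 132, 134 and 137 CPM with M-EV and 167, 166 and 165 CPM with M-LPS-EV (0.30, SE 0.03, edgeR adjusted p = 2.6e-09). Prc1, which bundles midzone microtubules, had 129, 136 and 128 CPM and 159.5, 155 and 161 CPM (0.28, SE 0.03). Kif23, the centralspindlin motor, had 51.1, 45.8 and 48.2 CPM and 62.1, 63.1 and 65.0 CPM (0.39, SE 0.04). In CPM the groups of all of these were apart, but on the TPM scale Kif23 was not called (limma adjusted p = 0.077). Kif20a, a kinesin that brings the passenger complex to the midzone, had 84.7, 87.1 and 87.7 CPM and 96.7, 101 and 98.3 CPM (0.19, SE 0.03, edgeR adjusted p = 6.8e-05). With effective length offsets Kif20a was no longer called (0.12, edgeR adjusted p = 0.10). Ect2, the exchange factor that starts the furrow, changed by 0.22 (SE 0.04) and was not called on the TPM scale (limma adjusted p = 0.0998).

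Mki67, the marker of cycling cells whose protein coats mitotic chromosomes, had the smallest p-value of the set. Its libraries stood at 308, 324 and 316 CPM with M-EV and 412, 424 and 406 CPM with M-LPS-EV (0.39, SE 0.02, edgeR adjusted p = 6.5e-13). Top2a, the topoisomerase that untangles sister chromatids, stood at 303, 303 and 305 CPM and at 369.7, 371 and 366 CPM (0.28, SE 0.02, edgeR adjusted p = 5.5e-11). The pair had nearly the same CPM with M-EV, and 95% intervals of the change of 0.34 to 0.44 for Mki67 and 0.24 to 0.32 for Top2a, whose difference was not tested.

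**Figure D3:**
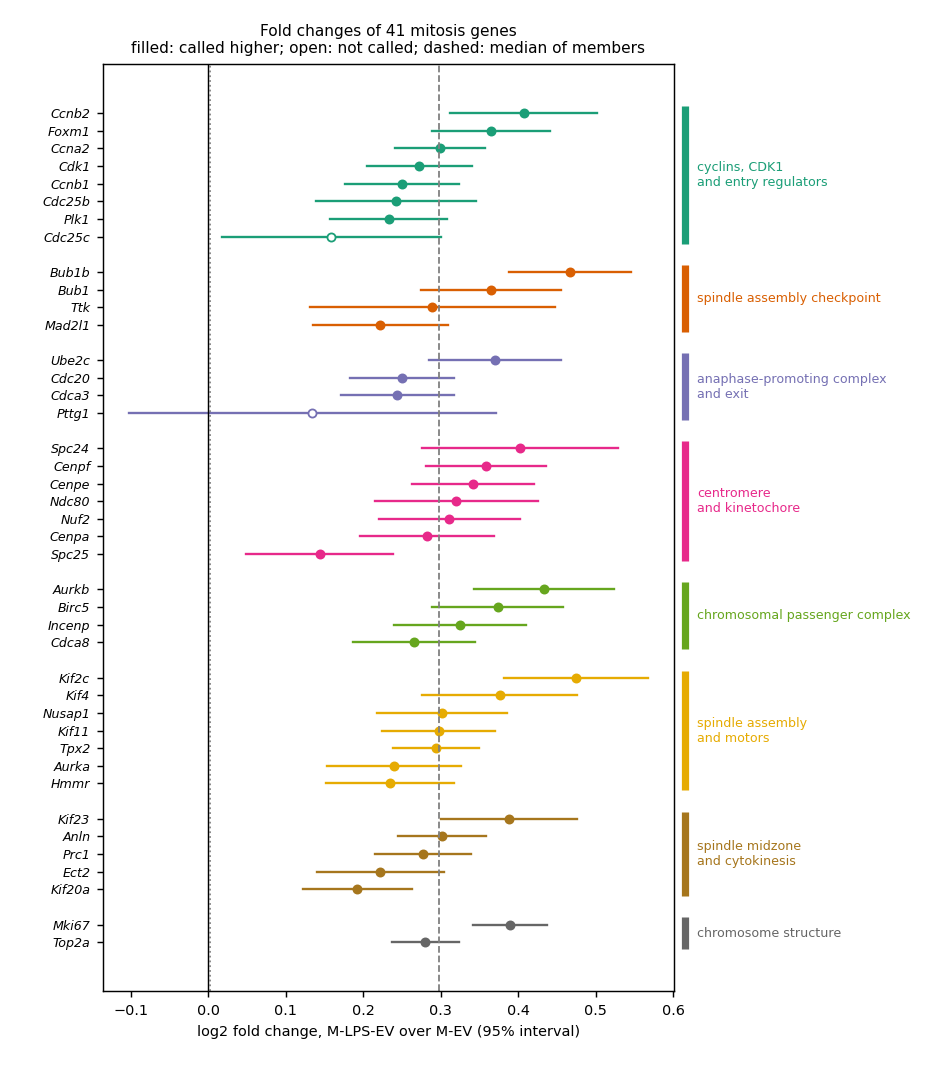
Log2 fold change of M-LPS-EV over M-EV with its 95% interval for the 41 genes, grouped by role and coloured alike. Filled points were called higher and open points not called; the dashed line is the median of the members, 0.30, and the dotted line, next to 0, that of all tested genes. All points lie right of 0.

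Within role groups the estimates differed, from 0.14 to 0.40 among the kinetochore genes and from 0.22 to 0.47 among the checkpoint genes. The interval of 33 of the 41 genes held the members' median log2 fold change, that of 6 lay above it and that of 2 below it. Summed TPM rose by a factor of 1.19 for the midzone and cytokinesis genes and of 1.26 for the passenger complex, with the other 6 role groups between them. When a change of at least 1.2-fold was required (edgeR glmTreat, adjusted p under 0.05), 12 of the 41 genes were called: Ccnb2, Foxm1, Bub1, Bub1b, Ube2c, Cenpf, Aurkb, Birc5, Kif2c, Kif4, Kif23 and Mki67. Of all tested genes 5.2% were called higher and 2.58% lower by that test. When changes in transcript length were offset, 35 of the 41 genes were called higher and none lower, beside 10.5% higher and 9.1% lower of all tested genes. DESeq2 called 38 of the 41 genes higher, beside 12.4% of all tested genes. Limma-trend on log2(TPM + 1) and log2(TPM + 0.1) called 31 each, beside 8.76% and 8.79%. Across the 41 genes log2 fold change and level gave a correlation near 0 (Pearson's r = -0.078, Spearman's rho = -0.098 against log2 TPM with M-EV), a description over genes that share the same libraries and are not independent replicates.

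Levels per length ran from Ttk at 10.1 ± 1.10 TPM to Cdk1 at 210.3 ± 9.88 TPM with M-EV (mean ± SD, n = 3), with a median of 49.3 TPM over the 41 genes. Top2a followed Cdk1 at 152 ± 3.81 TPM and Ube2c came next at 129.5 ± 4.98 TPM. That order depends on short non-coding models: over protein-coding transcripts alone Cdk1 stood at 132.6 ± 5.71 TPM, level with Ube2c within their spread, and Top2a at 99.1 ± 0.939 TPM, level with Birc5. After a gap, Cdca3, Birc5 and Cdc20 stood at 104 ± 10.98, 100.5 ± 3.02 and 99.5 ± 1.96 TPM and did not differ beyond their spread. The lowest levels besides Ttk were those of Kif4 (14.2 ± 1.07 TPM), Cenpf (14.8 ± 1.85 TPM) and Cdc25c (16.1 ± 1.17 TPM), again within their spread of each other. With M-LPS-EV Cdk1 reached 260.1 ± 6.01 TPM and Ttk 12.1 ± 0.832 TPM. On the TPM scale all M-LPS-EV libraries lay above all M-EV libraries in 39 of the 41 genes, as in 16.9% of all tested genes. The exceptions were Spc25, whose groups overlapped (lowest M-LPS-EV library 62.35 TPM, highest M-EV library 62.87 TPM), and Kif20a, whose groups met at 57.49 TPM, while the groups of Pttg1 were apart on this scale.

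**Figure D4:**
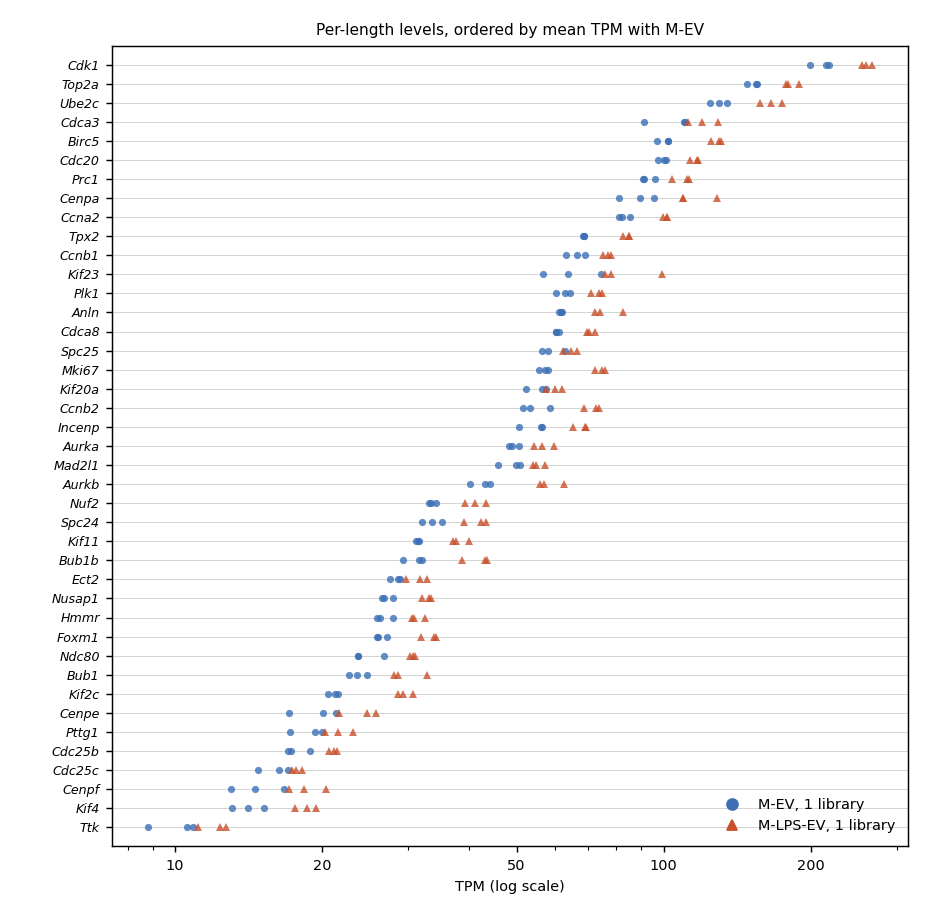
TPM of each library on a log scale for the 41 genes, ordered by the mean with M-EV. Circles are M-EV and triangles M-LPS-EV libraries. Cdk1 is highest and Ttk lowest in both groups.

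Some genes were carried almost wholly by 1 protein-coding transcript. Ccnb2-201 made up all of the gene's TPM in the 6 libraries, Ube2c-202 99.8% to 99.9% and Kif11-201 99.3% to 99.8%. The TPM of some members rests partly on short or non-coding models, to which RSEM assigns shared reads with little certainty. Cdk1-204, a retained-intron model of 475 bases, took 30.7%, 35.5% and 35.9% of Cdk1 TPM with M-EV and 35.5%, 36.9% and 37.3% with M-LPS-EV, ranges that meet, but only 242 to 372 counts in a library beside the 1685 to 2174 of the coding transcript Cdk1-202. Top2a-203 and Top2a-207, non-coding models of 796 and 803 bases, took 14.1% and 17.5% of Top2a TPM in M-EV replicate 1. Kif23-212, of 392 bases, took 28.7% to 36.5% of Kif23 TPM. Cenpa-202, a nonsense-mediated decay model, took 42.7% to 48.1% of Cenpa TPM, with no gap between the groups. With protein-coding transcripts only, an alternative chosen after the data were seen, 37 members were called higher, and Cenpa and Spc25 were not, beside 15.4% of all genes tested on those transcripts. Exons of 11 members overlap a gene on the opposite strand, the most in Kif20a, which shares 1271 bases with Cdc23, and the strand setting of the count is not given in the sources used here. Of the 30 members without such an overlap 29 were called higher.

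Other lists of the mitotic machinery held many called genes, nearly all of them higher. Their counts are to be read beside 16.4% called higher and 15.2% called lower of all tested genes. Of 36 other spindle, motor and cytokinesis genes 27 were called higher and 1 lower (median log2 fold change 0.25). Examples are Ckap2 (0.47, SE 0.04), a microtubule-associated protein, Aspm (0.37, SE 0.04), a protein of spindle poles, and Racgap1 (0.32, SE 0.03), the partner of Kif23 in centralspindlin. Haus8, a subunit of the augmin complex, was the 1 lower (-0.22, SE 0.04, edgeR adjusted p = 0.00013). Of 36 other kinetochore and centromere genes 18 were higher and none lower (median 0.18), among them Hjurp (0.27, SE 0.03), the chaperone of the Cenpa protein, and Cenpi (0.46, SE 0.06), of the inner kinetochore. In the list of condensin, cohesin and separase genes 13 of 19 were higher and none lower (median 0.20). The condensin subunit Ncapd2 changed by 0.30 (SE 0.03) and separase, Espl1, by 0.34 (SE 0.04), the cohesin subunit Rad21 by 0.20 (SE 0.02). Of 18 other mitotic and centriole kinases and partners 10 were higher and none lower (median 0.19), led by the kinases Pbk (0.31, SE 0.04) and Melk (0.33, SE 0.05).

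For the anaphase-promoting complex, with which Ube2c and Cdc20 work, 4 of 17 genes were called in either direction, beside 31.6% of all tested genes. Of the 17 subunits and partners 1 was called higher and 3 lower (median -0.004). The higher gene was Fzr1, the activator of the complex after mitosis (0.27, SE 0.04), and the lower genes were the subunits Cdc16 (-0.14, SE 0.03), Anapc1 (-0.09, SE 0.02) and Cdc26 (-0.14, SE 0.04). Among 23 genes of MuvB, MYB, E2F and NF-Y factors 5 were higher and 2 lower (median 0.07). Mybl2, which encodes B-MYB, rose by 0.26 (SE 0.06) and the repressor-type E2f6 and E2f5 fell by 0.20 (SE 0.05) and 0.30 (SE 0.09) on the log2 scale. These counts stand beside 16.4% called higher and 15.2% lower among all tested genes.

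The lists of earlier phases of the cycle and of its inhibitors are also to be read beside 16.4% called higher and 15.2% lower of all tested genes. Of 37 genes of DNA replication and nucleotide synthesis 14 were higher and 1 lower (median 0.09). The nucleotide enzymes Tk1 (0.45, SE 0.04), Rrm2 (0.28, SE 0.03) and Rrm1 (0.22, SE 0.03) and the maintenance methylation factor Uhrf1 (0.30, SE 0.04) had the smallest p-values, and Mcm2, of the replicative helicase, was the lower gene (-0.10, SE 0.04). Of 9 G1 cyclins and kinases 2 were higher and 3 lower. The 3 lower genes were the D-type cyclins: Ccnd1 fell from 106 to 70.8 CPM (-0.59, SE 0.04, edgeR adjusted p = 1.1e-12), Ccnd3 by 0.17 (SE 0.03) and Ccnd2 by 0.12 (SE 0.02) on the log2 scale. Ccne2, cyclin E2, and Cdk2 rose by 0.18 (SE 0.05) and 0.17 (SE 0.04). Of 18 CDK inhibitors and p53 targets 9 were higher and 4 lower. Cdkn1c, which encodes the CDK inhibitor p57 of growth-arrested chondrocytes, fell from 335 to 183 CPM (-0.87, SE 0.03, edgeR adjusted p = 2.1e-18), while Cdkn2b, the inhibitor p15, rose from 4.54 to 10.3 CPM (1.18, SE 0.11), and the antiproliferative genes Btg2 and Ccng2 rose by 0.85 (SE 0.06) and 0.79 (SE 0.08).

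**Figure D5:**
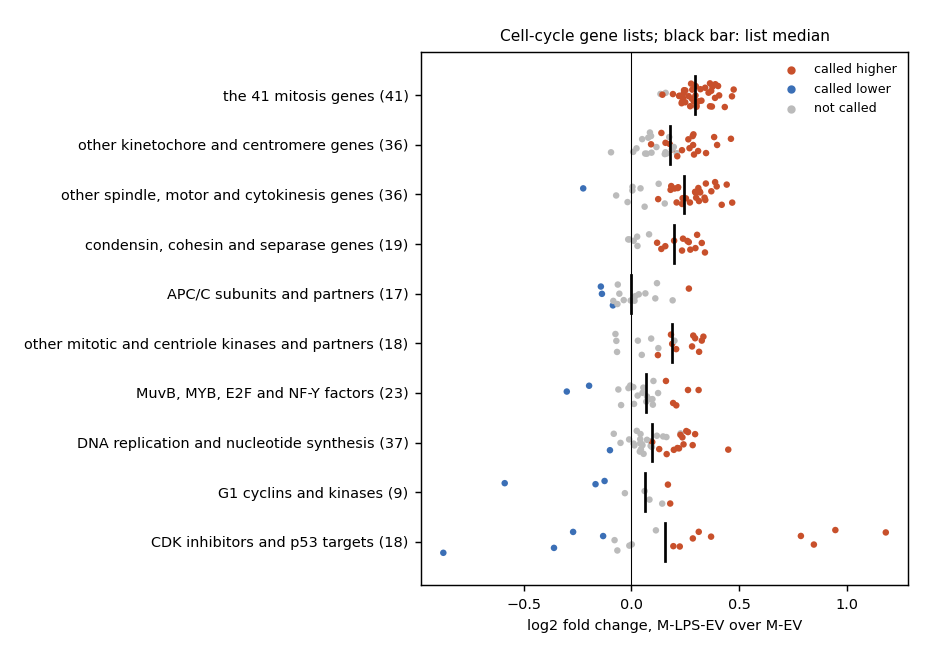
Log2 fold change of M-LPS-EV over M-EV for each tested gene of the 41 mitosis genes and of 9 other cell-cycle lists, with the number of genes in brackets. Colours give the call and black bars the list medians, which run from -0.004 for the anaphase-promoting complex (APC/C) to 0.30 for the 41 genes.

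The promoters of the lists were searched in the same way, as a description. A CHR run together with a CCAAT box was in the window of 69.7% of the 41-gene set with a window, of 45.2% of the other spindle genes (14 of 31), of 34.4% of the other kinetochore genes (11 of 32), of 6 of 30 replication genes and of 6.2% of the anaphase-promoting complex genes (1 of 16). The share over all genes was 12.2%. Shares are over the genes with a window and medians over all tested genes of a list, and a relation between them was not tested. The MuvB, MYB, E2F and NF-Y factors held both elements in 38.9% of cases (7 of 18) with a median log2 fold change of 0.07. Share and median were 33.3% and 0.20 for the condensin, cohesin and separase genes. They were 21.4% and 0.19 for the other mitotic and centriole kinases and partners. For the CDK inhibitors and p53 targets they were 13.3% and 0.15, and for the G1 cyclins and kinases 0.0% and 0.06.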

How the data were processed

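RNA of 6 libraries, 3 M-EV and 3 M-LPS-EV, was read, with groups and numbers taken from the titles. The submitters' processing notes name STAR, RSEM, DESeq2 and mm10, with versions and settings not given in the sources used here. The authors deposited an expected count and a TPM per transcript, an IsoPct column (percent of the gene's abundance) and transcript lengths, per the file headers. For each of 55487 genes the expected counts of its transcripts were added and rounded. Symbols came from a separate reference list of gene names, matched by gene identifier. Transcript types and coordinates came from GENCODE M21 (GRCm38), which holds 99.14% of the transcripts.

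Genes passing filterByExpr (minimum count 10, minimum total 15; 14604 genes) were scaled by TMM and tested with edgeR 4.0.16 (R 4.3.3, quasi-likelihood, group only), with Benjamini-Hochberg adjustment over all of them. Intervals are 95%. Alternatives used DESeq2 1.42.0 and limma 3.58.1. Counts for M-LPS-EV against M-EV were simulated from M-EV means in both groups, with few genes changed (14270 genes in the step). The test recovered 30 of 50 genes given a log2 change of 0.25 and 45 of 50 given 0.5. It called 17 of 14071 unchanged genes. Far more genes were called in the data than were changed in the simulation, so these rates need not hold for the data. Near-identical transcripts were sought with blastn 2.17.0 (at least 95% identity over 300 bases). Over the tested genes, chi-square per degree of freedom was 1.66 to 2.78 between libraries of a group and 26.7 to 34.1 between groups. No library was thus an exact copy of another. These values cannot tell technical replicates from separate cultures. RSEM's uncertainty in sharing reads is not modelled.

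The members and lists were chosen with earlier results of these data known. Values per library are given for up to 4 members of each role with the smallest p, for members not called, and for Spc25, chosen after its values were seen. From each other list up to 4 genes with the smallest p, and genes called against the list's main direction, could be named. Figures used matplotlib 3.10.9. Same-numbered libraries did not deviate together (correlations 0.028, -0.044 and -0.019), so the numbers were not taken as pairs.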

Additional observations from a re-analysis of the deposited data

How the results depend on the processing

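All 41 members kept a positive log2 fold change under every alternative run, the lowest being 0.08 for Pttg1 without M-EV replicate 3. Scaling by RLE or upper quartile, no filter on counts, a minimum mean of 50 counts and limma-voom left the calls of the members as they were, and upper-quartile scaling gave a median log2 fold change of 0.28. With the replicate number as a block 39 members were called higher and 4519 among all genes called, and no call of a member changed. Leaving out 1 library at a time gave 38 to 39 members higher and none lower, a median of 0.29 to 0.30, 3978 to 4317 of all genes called (2100 to 2245 higher, 1878 to 2072 lower) and, in the other lists, 85 to 92 higher and 11 to 14 lower. DESeq2 called 38, losing Spc25, and effective length offsets 35, losing Ttk, Cdca3, Spc25 and Kif20a. Limma-trend on log2(TPM + 1) and on log2(TPM + 0.1) called 31 each, losing also Cenpe, Cenpf, Kif23 and Ect2. The cause was not tested. A required change of at least 1.2-fold left 12. All genes called went from 4614 (all genes called higher 2397, all genes called lower 2217) to 2868 (1539 and 1329, or 10.5% and 9.1%) with length offsets, 2622 (1280 and 1342) and 2619 (1284 and 1335) on the TPM scales with pseudocounts of 1 and 0.1, and 1137 (760 and 377) at 1.2-fold. The 9 other lists together had 99 genes higher and 14 lower, against 62 and 9 with length offsets, 52 and 9 or 53 and 9 on the TPM scales, and 11 and 2 at 1.2-fold. Pttg1 had both the fewest counts and the smallest change of the members, and what depth contributes to its missing call was not tested.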
